A study of Mus musculus with 18 samples.

Results

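The nuclear-encoded subunits of the oxidative phosphorylation chain were described in mouse colon and in the dorsal horn of the spinal cord, where sensory fibres end. Members were taken by symbol, as genes named Nduf with a, b, c, s or v and a number (complex I), Sdha to Sdhd (complex II), Uqcr (complex III), Cox4 to Cox8 (complex IV) and Atp5 (complex V). Of 15410 gene symbols in the count tables, 63 matched: 35 of complex I, 4 of complex II, 8 of complex III and 16 of complex IV. No symbol matched Atp5, so complex V was not analysed here, and neither were Ndufa10, Ndufs6, Cox7a2 and Cox8c. The colon table held 62 members and that of the dorsal horn 63, with Cox7b2 in the latter only.

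The chain sits in the inner mitochondrial membrane. Complex I (NADH dehydrogenase) and complex II (succinate dehydrogenase, also an enzyme of the citric acid cycle) pass electrons to ubiquinone, complex III passes them to cytochrome c, and complex IV (cytochrome c oxidase) passes them to oxygen, while the proton gradient built on the way drives ATP synthesis by complex V. Most subunits are encoded in the nucleus and joined in the membrane with a few made from mitochondrial DNA, which this set does not include. Neurons draw most of their ATP from this chain, and colonocytes feed it with fatty acids of bacterial origin.

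All mice are labelled wild type, and each tissue had 3 groups of 3 bulk RNA libraries. Sham mice had sham surgery with control IgG, cancer mice had bone cancer with control IgG, and nivolumab mice had bone cancer and were given nivolumab, which is an antibody raised to block the PD-1 receptor. The sources used here give no strain, age, tumour line, dose or time of sampling. The labels do not say that the libraries came from separate animals, so p-values measure only the spread between these samples. Levels are given as CPM, counts scaled to a common library size with edgeR's TMM factors, computed within each tissue. CPM of colon and dorsal horn are thus not on a joint scale, while fold changes between the tissues come from a joint fit. Values in a row follow libraries 1, 2 and 3 of a group. A call is an adjusted p under 0.05 in edgeR's quasi-likelihood test over all genes of the tissue, and fold changes are log2 values of the first group named against the second.

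The labelled tissues matched their defining markers. Vil1, a brush-border protein of gut epithelium, lay between 829 and 1536 CPM in the colon and between 0.217 and 1.97 in the dorsal horn, and Rbfox3, a neuronal nuclear protein, lay between 167 and 188 CPM in the dorsal horn and between 0 and 3.93 in the colon. Markers of neighbouring tissue varied between dorsal horn libraries. Scn10a, a sodium channel of sensory ganglion neurons, had 205 to 400 CPM with nivolumab, 89.4 in sham 3, 102 in cancer 3 and at most 0.114 in the other 4 libraries. The sum over 14 ganglion neuron markers, none at 0 in any group, was 2598 to 3305 CPM in sham, 1912 to 2706 in cancer and 3827 to 4981 with nivolumab. Sums of 10 oligodendrocyte markers were 48878 to 59966 CPM in sham, 26210 to 37565 in cancer and 45851 to 50933 with nivolumab. In bulk tissue, fewer cells of a type and less RNA per cell cannot be told apart.

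Promoter windows of RefSeq (GRCm38.p6, from 250 bases before to 50 bases after a gene's start) were found for 50 of the 63 members, in 52 windows. Of these windows 19.2% held GCGCATG, a part of the site of NRF1, a known activator of respiratory genes, against 3.91% of 32851 windows of all genes. CCGGAAG, the ETS site bound by GABP, was in 21.2% against 8.86%, the YY1 core AAGATGG in 13.5% against 6.34%, and the ERR site AAGGTCA in 7.69% against 4.72%. Both strands were searched, and a match describes letters in a window, not a bound site. Windows of 4 genes are shown for members that carry the results below, each cut to the bases that lie before the gene's RefSeq start and outside any annotated exon, 5′ to 3′ on the minus strand, with the listed motifs in capitals on either strand. Ndufs5 (chr4:123718203-123718436) and Cox7a2l (chr17:83514334-83514583, whose RefSeq start lies inside the longer GENCODE gene model, so that the whole window falls within that model) had the largest differences with cancer among the abundant members of the dorsal horn. Uqcrfs1 (chr13:30545363-30545566) was called higher there with nivolumab than in cancer, a call lost in 15 of 18 alternative fits. Sdhd (chr9:50603850-50603909) differed most in p between the tissues.
Ndufs5: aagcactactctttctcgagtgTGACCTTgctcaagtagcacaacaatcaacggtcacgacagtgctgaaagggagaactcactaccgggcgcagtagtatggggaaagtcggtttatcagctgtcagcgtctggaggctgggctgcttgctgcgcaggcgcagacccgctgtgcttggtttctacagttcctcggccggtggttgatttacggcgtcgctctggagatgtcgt
Cox7a2l: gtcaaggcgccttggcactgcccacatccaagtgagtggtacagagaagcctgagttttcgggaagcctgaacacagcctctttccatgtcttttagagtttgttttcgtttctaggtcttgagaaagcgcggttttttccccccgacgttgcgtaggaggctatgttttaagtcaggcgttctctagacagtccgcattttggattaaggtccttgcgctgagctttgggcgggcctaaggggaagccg
Uqcrfs1: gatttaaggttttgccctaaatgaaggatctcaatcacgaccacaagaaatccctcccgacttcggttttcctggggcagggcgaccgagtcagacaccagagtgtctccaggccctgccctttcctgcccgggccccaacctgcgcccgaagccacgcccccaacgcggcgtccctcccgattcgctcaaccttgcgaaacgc
Sdhd: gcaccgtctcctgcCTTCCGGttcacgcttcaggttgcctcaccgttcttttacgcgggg
The Ndufs5 window held the ERR letters once on the opposite strand, and the Sdhd stretch held the ETS letters once on the opposite strand. The Cox7a2l and Uqcrfs1 stretches held none of the 4 motifs.

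Cancer was first compared with sham in the dorsal horn. Cox7a2l, which encodes a factor that joins complexes III and IV into supercomplexes, fell to 0.659 of its sham level, and it was the only member called. It had 168, 155 and 180 CPM in sham and 116, 107 and 108 in cancer. All 3 cancer libraries lay below all 3 sham libraries. The log2 fold change was −0.60 (SE 0.07, adjusted p = 0.0105, edgeR). It was not called without sham 1 (adjusted p = 0.0974), without nivolumab 1, whose library only adds to the estimate of spread (adjusted p = 0.060), or in a fit of the 2 groups alone (adjusted p = 0.0882).

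Ndufs5, an accessory subunit of the membrane arm of complex I, had the largest difference among abundant members and just missed the threshold. It had 69.5, 66.7 and 66.9 CPM in sham and 40.9, 22.9 and 23.6 in cancer. Cancer 1 lay between its group mates and sham, and the groups did not overlap. The log2 fold change was −1.21 (SE 0.20, adjusted p = 0.0526, edgeR), and without cancer 1 it was −1.53 (adjusted p = 3.56e-05). Of 19 alternatives 14 left it uncalled, with adjusted p up to 0.244, among them the skeletal muscle marker score as a covariate (0.0818). The other 5 called it: the fit without cancer 1, DESeq2, upper-quartile factors (0.0469), the replicate block (0.0401) and the ganglion marker score as a covariate (0.0245).

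**Figure D1:**
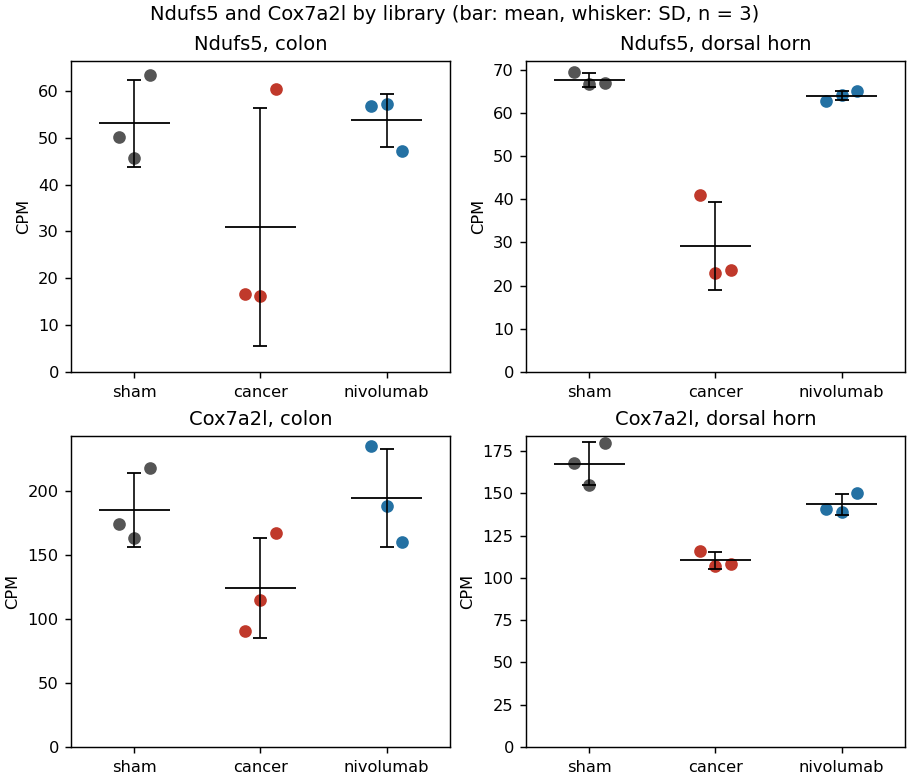
CPM of Ndufs5 (top) and Cox7a2l (bottom) in each library of colon (left) and dorsal horn (right), by group, with a bar at the mean and whiskers of 1 SD (n = 3). In the dorsal horn all 3 cancer libraries lie below sham and nivolumab for both genes, while in the colon cancer 3 lies with the other groups for Ndufs5, at 60.4 CPM.

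Across all 63 tested members the differences were small and mostly of 1 sign. The edgeR call rate was 0.323% of 13609 genes, and 1 of 63 members (1.59%) passed. Log2 fold changes were below 0 for 56 of 63 members, 88.9% against 48.6% of all genes, with a median of −0.11 against 0.01 for all genes. At an unadjusted p under 0.05 there were 16 lower members (25.4%, against 7.04% of all genes) and 0 higher (against 6.06%). The cancer libraries did not overlap with sham on the lower side for 28 members (44.4%), against a background of 8.43%. These signs depended on the scaling: with total counts alone the median of all genes moved to 0.08, that of the members to −0.03, 40 of 63 members were below 0, and 6 members (9.52%, against 3.95% of all genes) lay wholly below sham. Relative to the median of all genes, 56 of 63 members were lower under TMM, RLE, upper-quartile and total-count scaling alike. A scaling factor moves all genes of a library together, so this agreement was nearly fixed in advance. It is no check on the scaling. Without sham 3 and cancer 3, the libraries of these groups with ganglion RNA, the median of the members was −0.07. The oligodendrocyte sums given above and those of 6 red cell markers (789 to 1318 CPM in sham, 152 to 272 in cancer) also differed between these groups, and their part in the members' values was not tested.

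The 4 complexes had like medians, −0.10 for the 35 members of complex I, −0.05 for the 4 of complex II, −0.13 for the 8 of complex III and −0.12 for the 16 of complex IV. In complex III all 8 members were below 0, led by Uqcrfs1, the Rieske iron-sulphur protein that takes electrons from ubiquinol. Uqcrfs1 had 98.6, 99.2 and 98.0 CPM in sham and 86.5, 85.5 and 86.6 in cancer, which did not overlap, but its log2 fold change of −0.19 (SE 0.06) had an adjusted p of 0.231 in edgeR. Cox4i1, the common form of a regulatory subunit of complex IV that binds ATP, had 641, 606 and 657 CPM in sham and 573, 567 and 584 in cancer (−0.14, SE 0.05, adjusted p = 0.240). Ndufs4, a subunit of complex I whose loss causes a Leigh-like disease in mice, had 65.9, 62.8 and 61.5 CPM in sham and 55.1, 56.8 and 55.5 in cancer (−0.18, SE 0.06, adjusted p = 0.263). In each of these genes all cancer libraries were below all sham libraries, and no call was made. Of the members above 0, Cox7b2, a testis form of a complex IV subunit, had the largest fitted value, and it rested on 8 counts in sham and 24 in cancer over 3 libraries each.

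**Figure D2:**
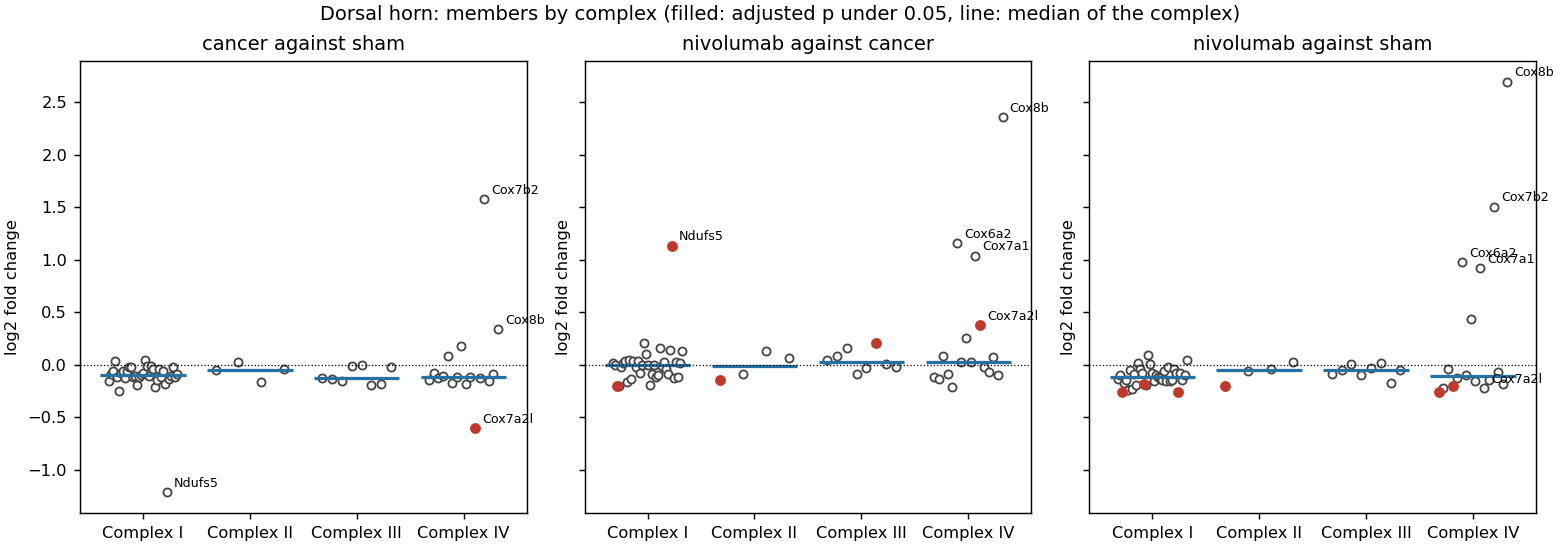
Log2 fold changes of the 63 members in the dorsal horn, grouped by complex along the x axis, for cancer against sham (left), nivolumab against cancer (middle) and nivolumab against sham (right). Filled points have an adjusted p under 0.05 (1, 5 and 6 members), and the line is the median of each complex.

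Nivolumab was then compared with cancer in the dorsal horn, where 3 members rose (4.76%, against 8.63% of all genes) and 2 fell (3.17%, against 8.6%). Ndufs5 rose 2.20-fold, to 62.8, 64.2 and 65.0 CPM, from the 40.9, 22.9 and 23.6 given above. All nivolumab libraries were above all cancer libraries and below all sham libraries. The log2 fold change was 1.13 (SE 0.20, adjusted p = 0.00778, edgeR). Cox7a2l rose 1.30-fold, to 141, 139 and 150 CPM (0.38, SE 0.07, adjusted p = 0.00692), again with every library between cancer and sham. Both calls held in all 18 alternatives run for this contrast, among them the ganglion marker score as a covariate (adjusted p of 0.0175 for Ndufs5 and 0.0292 for Cox7a2l) and the skeletal muscle marker score (0.0259 and 0.0475). The ganglion marker sums did not overlap between cancer and nivolumab libraries. As a covariate the ganglion score therefore cannot cleanly separate ganglion RNA from nivolumab in this contrast. This comparison shares the cancer libraries with the one above, so a library that is low in cancer enters both.

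The other 3 calls were small and close to the threshold. Uqcrfs1 rose to 109, 94.7 and 95.2 CPM from 86.5, 85.5 and 86.6 in cancer (0.21, SE 0.06, adjusted p = 0.0472), and this call was lost in 15 of 18 alternatives. Sdha, the flavoprotein that oxidises succinate in complex II, fell to 529, 539 and 532 CPM from 582, 603 and 583 in cancer (−0.14, SE 0.04, adjusted p = 0.0435), lost in 13 of 18, among them the fit with the replicate number as a block (adjusted p = 0.0514). Ndufa12, an accessory subunit of the hydrophilic arm of complex I, fell to 82.7, 88.4 and 86.0 CPM from 92.5, 101 and 102 (−0.20, SE 0.06, adjusted p = 0.0476), lost in 10 of 18. In each the groups did not overlap. After adjustment for the ganglion score the values were 0.20 for Uqcrfs1 (adjusted p = 0.115), −0.13 for Sdha (adjusted p = 0.126) and −0.27 for Ndufa12 (adjusted p = 0.0304).

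The members as a whole had no common sign in this contrast. The call rate over all genes was 17.2%, and 5 of 63 members (7.94%) passed. Log2 fold changes were above 0 for 31 members (49.2%, against 50% of all genes) and below 0 for 32 (with total counts alone, 23 were above 0), with a median of −0.002 against 0.000 for all genes. The medians of complexes I to IV were −0.003, −0.01, 0.03 and 0.03. In complex II the remaining members differed in sign: Sdhb, the iron-sulphur subunit, had −0.09, and the membrane anchors Sdhc and Sdhd had 0.13 and 0.07, all without a call (adjusted p = 0.312, 0.185 and 0.473).

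Against sham, nivolumab dorsal horns had 6 members lower and none higher. Cox4i1 fell most in p, to 522, 537 and 528 CPM from 641, 606 and 657 in sham, with the cancer libraries in between. Its log2 fold change was −0.26 (SE 0.05, adjusted p = 0.0131, edgeR), and the call was lost in 3 of 18 alternatives. Ndufs7, a core subunit that carries the last iron-sulphur cluster before ubiquinone in complex I, fell to 59.8, 60.6 and 62.2 CPM from 73.1, 71.4 and 74.3 (−0.26, SE 0.06, adjusted p = 0.0242). Ndufa12 fell from 102, 99.6 and 107 CPM to the nivolumab values above (−0.26, SE 0.06, adjusted p = 0.0304), and Sdha from 616, 607 and 613 (−0.20, SE 0.04, adjusted p = 0.0216). Cox5b, a zinc-binding subunit of complex IV (−0.20, adjusted p = 0.0423), and Ndufb10, of the membrane arm of complex I (−0.18, adjusted p = 0.0492), fell with less margin and were lost in 12 and 16 of 18 alternatives. Ndufs7 and Sdha were lost in 6 of 18 alternatives each, and Ndufa12 in 8 of 18. In all 6 called members the nivolumab libraries lay below every sham library. No member was called without sham 1, nivolumab 1 or nivolumab 3. With adjustment for the ganglion score, Cox4i1 (adjusted p = 0.00820) and Ndufa12 (adjusted p = 0.0189) were called, and Sdha (adjusted p = 0.0552) and Ndufs7 (adjusted p = 0.0689) were not. The ganglion marker sums of sham and nivolumab did not overlap either, so this adjustment cannot cleanly separate ganglion RNA from the group.

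The share of members called, 6 of 63 (9.52%), was near the 8.51% of all genes, of which 3.84% were lower and 4.67% higher. Log2 fold changes were below 0 for 51 of 63 members, 81% against 50.5% of all genes, with a median of −0.10 against −0.003 for all genes. Nivolumab did not overlap with sham on the lower side for 24 members (38.1%), against 18.2% of all genes, and for 16 members (25.4% against 13.0%) with total counts alone. The medians were −0.11 for complex I, −0.05 for complexes II and III, and −0.11 for complex IV. Ndufs5 was near its sham level here (−0.08, adjusted p = 0.837), and its sign turned with the ganglion score (0.12) or the muscle score (0.06) as a covariate. Cox7a2l was not called (−0.22, SE 0.07, adjusted p = 0.0704). Summed over all members the libraries had 7657, 7272 and 7633 CPM in sham, 6962, 7057 and 7010 in cancer and 6836, 6749 and 7092 with nivolumab, so that every cancer and nivolumab sum was below every sham sum. As a share of all counts the sums were 0.731% ± 0.0221 in sham, 0.719% ± 0.00839 in cancer and 0.691% ± 0.0137 with nivolumab (SD, n = 3), and there cancer overlapped with sham. Red cell marker sums were 789 to 1318 CPM in sham and 277 to 329 with nivolumab, with 5 of 6 markers called lower, and their part in the members' values was not tested.

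The muscle forms of complex IV subunits were highest in a few dorsal horn libraries. Cox6a2, the heart and skeletal muscle form of subunit 6a, had 2.38, 1.30 and 3.53 CPM in sham, 0.874, 4.18 and 1.32 in cancer and 1.04, 10.1 and 3.03 with nivolumab. Cox8b, a form of subunit 8 found in muscle and brown fat, had 0.493, 0.316 and 0.303 CPM in sham, 0.350, 0.951 and 0.0882 in cancer and 0.433, 3.70 and 3.07 with nivolumab. Cox7a1, the muscle form of subunit 7a, had 1.77, 2.13 and 1.10 CPM in sham, 1.47, 1.98 and 1.15 in cancer and 1.73, 3.56 and 4.14 with nivolumab. In all 3 genes the highest library was nivolumab 2 or 3, nivolumab 1 lay within the range of the other groups, and none was called against cancer (adjusted p = 0.385, 0.0809 and 0.0888, edgeR).

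The sum over 14 skeletal muscle markers was also highest in nivolumab 2 and 3. It was 152, 109 and 286 CPM in sham, 105, 430 and 107 in cancer and 219, 1260 and 659 with nivolumab, and no marker was at 0 throughout any group. Cancer 2 had the next highest sum, and it was also the highest cancer library for all 3 isoforms. The order was not the same throughout. Among sham libraries, sham 3 had the highest sum and the highest Cox6a2 (3.53 CPM), but the lowest Cox7a1 (1.10) and Cox8b (0.303). Cox6a2 in nivolumab 3 (3.03 CPM) was below sham 3 and cancer 2. Acta1, the actin of skeletal muscle, ran from 0.907 CPM in sham 2 to 240 in nivolumab 2. The part of the muscle RNA in these values was not tested. The widely expressed counterparts made up nearly all of each pair in CPM per kilobase of annotated exon. On that scale Cox6a2 made up 0.383% to 5.24% of the sum of Cox6a2 and Cox6a1. Cox8b made up 0.103% to 4.29% of that of Cox8b and Cox8a.

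**Figure D3:**
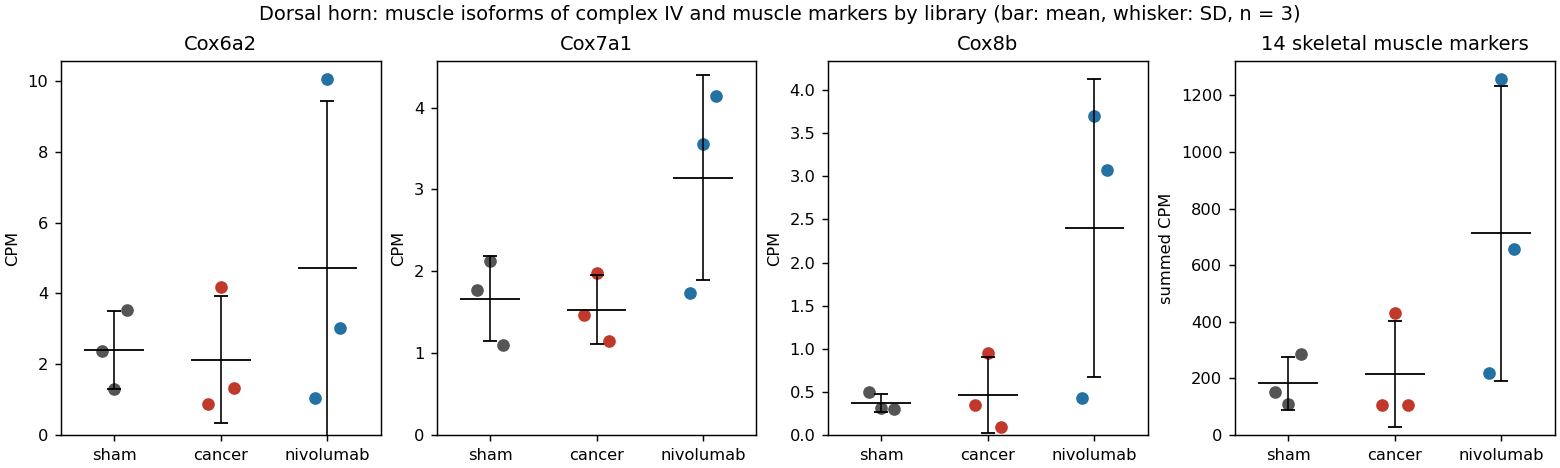
CPM of Cox6a2, Cox7a1 and Cox8b, and the summed CPM of 14 skeletal muscle markers (right), in each dorsal horn library by group, with a bar at the mean and whiskers of 1 SD (n = 3). Nivolumab 2 and 3 are high in the marker sum, at 1260 and 659 CPM, and in Cox7a1 and Cox8b.

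Genes that serve the chain without being members were counted from lists of the pathways. Cancer against sham gave no call in the dorsal horn among 15 complex I assembly factors, 74 genes of the mitochondrial ribosome, 18 of the citric acid cycle, 19 of glycolysis or 19 regulators of mitochondrial biogenesis, at the call rate of 0.323% given above. Their medians were −0.0003, −0.08, −0.06, 0.04 and 0.10. Nivolumab against cancer, with 17.2% of all genes called, gave 4 lower and 0 higher among the biogenesis regulators, led by Ppargc1a, the PGC-1α coactivator (−0.49, SE 0.07, adjusted p = 0.00287, edgeR). Glycolysis had 2 higher and 6 lower of 19, with Ldha, which turns pyruvate into lactate, at 0.78 (adjusted p = 0.00179) and the neuronal enolase Eno2 at −0.36 (adjusted p = 0.00341). The citric acid cycle had 2 higher and 2 lower of 18, with Idh1, a cytosolic isocitrate dehydrogenase, at 0.87 (adjusted p = 0.00128). Assembly factors of complex I had 2 higher and 1 lower of 15, with Ndufaf1 at 0.48 (adjusted p = 0.0261). The ganglion and muscle marker sums differed between the same groups, as did those of 10 Schwann cell markers (293 to 830 CPM in cancer, 1359 to 1621 with nivolumab), and their part in these values was not tested.

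In the colon no member was called in any of the 3 contrasts. Cancer against sham had 0 of 60 tested members called by edgeR, at a call rate of 0% over 13445 genes, and DESeq2 also called no member, with 384 genes in all. At an unadjusted p under 0.05 there were 3 members, all lower (5%), against 5.53% of all genes in that direction. Cox6a2 and Cox8b, with median counts of 2 and 7, did not pass the filter on low counts.

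Most members were nonetheless lower in cancer than in sham within the spread of the libraries. Log2 fold changes were below 0 for 51 of 60 members, 85% against 49.7% of all genes, with a median of −0.14 against 0.002. The medians were −0.13, −0.15, −0.17 and −0.12 for complexes I to IV. The cancer libraries did not overlap with sham on the lower side for 4 members (6.67%), against 11.4% of all genes, and with total counts alone for 9 members (15%), against 15.1%. The median ran from −0.27 without cancer 3 to −0.02 without sham 3. In the mitochondrial ribosome 64 of 74 genes were below 0 (median −0.15), and in the citric acid cycle 17 of 18 (−0.19), while 16 of 19 glycolysis genes were above 0 (0.39), none of them called.

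The smallest p belonged to Ndufb2, an accessory subunit of the membrane arm, with 38.0, 34.7 and 38.8 CPM in sham, 23.1, 20.1 and 31.6 in cancer and 37.7, 32.9 and 28.7 with nivolumab. Cancer lay below sham in every library, with a log2 fold change of −0.59 (SE 0.19, adjusted p = 0.348, edgeR). Cox7a2l had 174, 164 and 218 CPM in sham, 90.9, 115 and 167 in cancer and 235, 188 and 160 with nivolumab. Only cancer 3 reached the range of sham (−0.58, SE 0.24, adjusted p = 0.424). Ndufb11, another subunit of that arm, had −0.41 (adjusted p = 0.444), Ndufs8, which binds iron-sulphur clusters, −0.41 (adjusted p = 0.472), and Cox7a1 −1.09 (adjusted p = 0.479).

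Ndufs5 split the cancer group in the colon. It had 50.2, 45.7 and 63.5 CPM in sham, 16.5, 16.1 and 60.4 in cancer and 56.8, 57.2 and 47.2 with nivolumab. Cancer 1 and 2 lay below every other colon library, and cancer 3 lay within the range of sham. The log2 fold change was −0.79 (SE 0.46, adjusted p = 0.556, edgeR), and without cancer 3 it was −1.71 with an adjusted p of 0.0368, the 1 case in which a colon member was called. In the dorsal horn the cancer library nearest to sham was cancer 1, and the labels do not tie a colon library to a dorsal horn library of the same number.

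Nivolumab against cancer in the colon gave higher values for nearly all members, without a call. EdgeR called 0 of 60 members and 0% of all genes, and DESeq2 called no member and 186 genes in all. Log2 fold changes were above 0 for 59 of 60 members, 98.3% against 53.1% of all genes, with a median of 0.29 against 0.03. At an unadjusted p under 0.05 there were 7 members, all higher (11.7%, against 5.55% of all genes). The groups did not overlap on the higher side for 2 members (3.33%), Ndufa12 and Ndufs8, against 6.91%, and with total counts alone for 12 members (20%), against 8.23%. Complexes I to IV had medians of 0.30, 0.25, 0.30 and 0.26.

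Ndufa12 had 81.4, 54.2 and 85.1 CPM in cancer and 107, 115 and 99.0 with nivolumab (0.57, SE 0.18, adjusted p = 0.463, edgeR). Ndufs8 had 95.5, 71.4 and 117 CPM in cancer and 138, 134 and 118 with nivolumab (0.49, SE 0.19, adjusted p = 0.492). In both genes cancer 2 was the lowest library of all 9. Cox7a2l had 0.67 (SE 0.24, adjusted p = 0.487), and Ndufa4, a small subunit named for complex I and since found in complex IV, had 0.46 (SE 0.18, adjusted p = 0.492). The median of the members ran from 0.11 without nivolumab 1 to 0.43 without cancer 3. Other mitochondrial lists had like values, with no gene called: 73 of 74 genes of the mitochondrial ribosome were above 0 (median 0.35), as were 15 of 15 complex I assembly factors (0.28) and 16 of 18 genes of the citric acid cycle (0.31), while 8 of 19 glycolysis genes were (−0.09).

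Against sham, nivolumab colons had 0 members called by edgeR, with 0% of all genes called, and DESeq2 called no member and 146 genes in all. At an unadjusted p under 0.05 there was 1 member, Ndufa8, a twin cysteine motif subunit of complex I, at 0.51 (adjusted p = 0.709), 1.67% against 6.45% of all genes. Log2 fold changes were above 0 for 50 of 60 members, 83.3% against 54.1% of all genes, with a median of 0.14 that became −0.03 without nivolumab 1. Ndufs5 (0.04) and Cox7a2l (0.09) were near 0, and leaving out 1 library turned the sign of each. Summed over members the colon libraries had 10732, 8923 and 12311 CPM in sham, 9335, 8213 and 11734 in cancer and 13248, 11801 and 9764 with nivolumab, and the 3 groups overlapped.

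Tissue markers varied widely between colon libraries. The sum over 8 smooth muscle markers was 1561 to 20738 CPM in sham, 7285 to 24544 in cancer and 3226 to 4970 with nivolumab, with no marker at 0. The sum over 8 immune cell markers was 1272 to 1420 CPM in sham, 224 to 580 in cancer and 396 to 704 with nivolumab, so that sham lay above both other groups. The sum over 8 pericyte and vascular smooth muscle markers was 132 to 764 CPM in sham, 750 to 2459 in cancer and 406 to 766 with nivolumab. The part of these cells in the members' values was not tested. The sum over 10 colonocyte markers was 10553 to 22340 CPM in sham, 14924 to 23785 in cancer and 14059 to 26820 with nivolumab. With the smooth muscle score as a covariate, a choice made after seeing these sums, the medians of the members were −0.10 for cancer against sham, 0.25 for nivolumab against cancer and 0.11 for nivolumab against sham, again with no call.

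**Figure D4:**
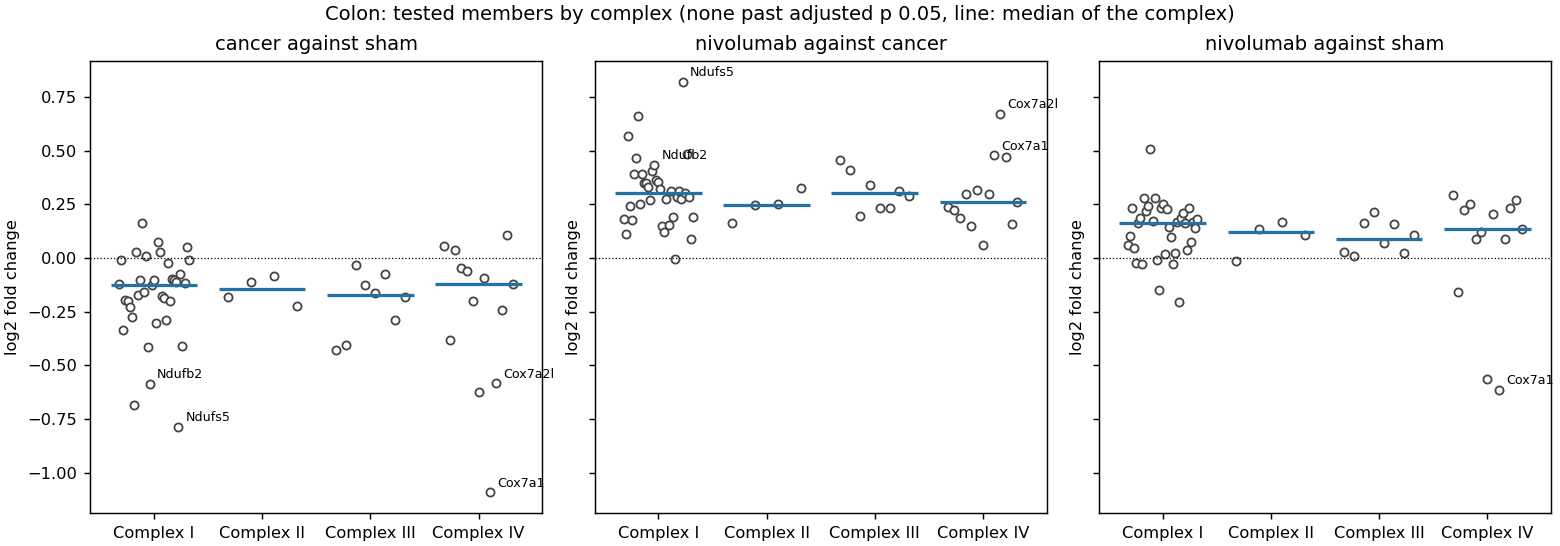
Log2 fold changes of the 60 tested members in the colon, by complex, for cancer against sham (left), nivolumab against cancer (middle) and nivolumab against sham (right), with a line at the median of each complex. No point passed the threshold; 51 of 60 points lie below 0 on the left and 59 of 60 above 0 in the middle.

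The responses of both tissues was compared in a joint fit of the 18 libraries through the tissue-by-group interaction, with 62 members tested. For cancer against sham, edgeR called 0 of 62 members, against 0.155% of 14164 genes, 0 members had an unadjusted p under 0.05 (against 10.9% of all genes), and DESeq2 called none. For nivolumab against cancer, edgeR called 0 of 62 members, against 0.127% of all genes, with 3 at an unadjusted p under 0.05 (4.84%, against 16.4%), and DESeq2 called 1. The difference of the responses was above 0 for 53 of 62 members, 85.5% against 44.9% of all genes, with a median of 0.24 against −0.07. Ndufa12 had the smallest p: its response was higher in colon than in dorsal horn by 0.71 (SE 0.18, adjusted p = 0.0938), and it was called with DESeq2 and without colon cancer 3. For Ndufs5 the difference was −0.38 (SE 0.55, adjusted p = 0.750). For Cox7a2l the difference was 0.23 (SE 0.28, adjusted p = 0.688).

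The sham groups of both tissues were compared to describe the make-up of the chain. The members were mostly higher in colon, and the medians of complexes II, III and IV were above that of complex I. Of 62 tested members 37 were called by edgeR (59.7%, against a call rate of 75.2% over 14164 genes), 33 higher and 4 lower in colon. The shares of all genes were 38.2% higher and 37% lower. The median was 0.49 over all members against 0.04 over all genes. It was 0.18 for complex I (12 higher, 2 lower of 35), 1.00 for complex II (3 higher of 4), 1.20 for complex III (8 higher of 8) and 0.78 for complex IV (10 higher, 2 lower of 15). Complexes were assigned by symbol, and the 2 lower of complex I were Ndufa4, since found in complex IV, and its paralog Ndufa4l2. Tissue and any difference in handling between the tissues cannot be told apart.

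In complex II 3 subunits were called higher in colon, and Sdha was not called. Sdhd, a membrane anchor, had 320, 272 and 422 CPM in sham colon and 90.5, 89.7 and 86.3 in sham dorsal horn, a 3.93-fold higher level in colon (log2 1.97, SE 0.17, adjusted p = 9.22e-08, edgeR). Sdhc, the other anchor, had 237, 217 and 293 against 122, 113 and 106 CPM (1.18, adjusted p = 1.57e-05), and Sdhb had 216, 156 and 262 against 127, 116 and 126 (0.83, adjusted p = 0.000705). Sdha, the catalytic partner, had 531, 364 and 586 CPM in colon and 616, 607 and 613 in dorsal horn. It was not called (−0.26, SE 0.17, adjusted p = 0.170). In CPM scaled within each tissue, the 3 called subunits were higher in every sham colon library than in any sham dorsal horn library. That order was not checked on a joint scale. For Sdha each colon value was below each dorsal horn value, but CPM were scaled within each tissue. Its nearest values, 586 in colon and 607 in dorsal horn, are too close for that order to be read.

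In complex III all 8 members were higher in colon. Uqcrb, a small subunit next to the ubiquinone site, had 217, 167 and 251 CPM against 69.1, 61.8 and 67.5 (1.72, SE 0.15, adjusted p = 1.16e-07, edgeR). The small subunits Uqcr10 (1.39) and Uqcrq (1.31) and the Rieske protein Uqcrfs1 (1.36) followed, and the core protein Uqcrc1 had the smallest difference (0.34, adjusted p = 0.0483). In CPM scaled within each tissue, no sham colon library overlapped with sham dorsal horn for Uqcrb.

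In complex IV some isoforms differed between the tissues. Cox8b, with 18 counts in sham colon and 28 in sham dorsal horn, was not called (−0.72, SE 1.10, adjusted p = 0.563, edgeR). Cox7a1 was 9.43-fold higher in colon, with 16.2, 13.8 and 15.6 CPM against 1.77, 2.13 and 1.10 (3.24, SE 0.52, adjusted p = 4.66e-05, edgeR). Cox6b2, known as a testis form of subunit 6b, was 3.76-fold higher, with 7.06, 5.70 and 5.82 CPM against 1.44, 1.81 and 1.86 (1.91, adjusted p = 1.18e-05). Cox6a2 was lower in colon, with 5 counts in 3 colon libraries against 184 in 3 dorsal horn libraries. As shares of total counts, the ratio of dorsal horn to colon was 40.3 (95% counting interval 17.0 to 126, without the spread between libraries). In edgeR the log2 fold change was −5.21 (SE 1.26, adjusted p = 0.00168). This call was lost with the replicate block (adjusted p = 0.0584). The highest of the sham dorsal horns was sham 3, which also had the highest muscle marker sum of that group. Cox4i2, the form of subunit 4 linked to lung and low oxygen, was also lower in colon, with 1.44, 0.842 and 0.754 CPM against 2.51, 2.09 and 1.82 (−1.02, adjusted p = 0.0338), and this call was lost in 5 of 12 alternatives. Among common forms, Cox6a1 (1.23), Cox5a (1.11), Cox8a (1.07), Cox7b (0.99) and Cox6b1 (0.78) were higher in colon, while Cox4i1 (0.36, adjusted p = 0.127) was not called.

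The remaining 2 of the 4 members lower in colon were a pair of paralogs. Ndufa4 had 114, 108 and 137 CPM in sham colon and 234, 205 and 237 in sham dorsal horn (−0.87, SE 0.15, adjusted p = 8.52e-05, edgeR). Its paralog Ndufa4l2, which is known to be induced by low oxygen, had 1.28, 1.30 and 0.857 CPM against 3.86, 4.38 and 3.30 (−1.69, SE 0.35, adjusted p = 0.000490). Neither gene overlapped between the sham groups in CPM scaled within each tissue. In CPM per kilobase of annotated exon, over the libraries of all groups, Ndufa4l2 made up 0.411% to 1.49% of the sum of the pair in colon. In dorsal horn it made up 1.53% to 2.62%.

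**Figure D5:**
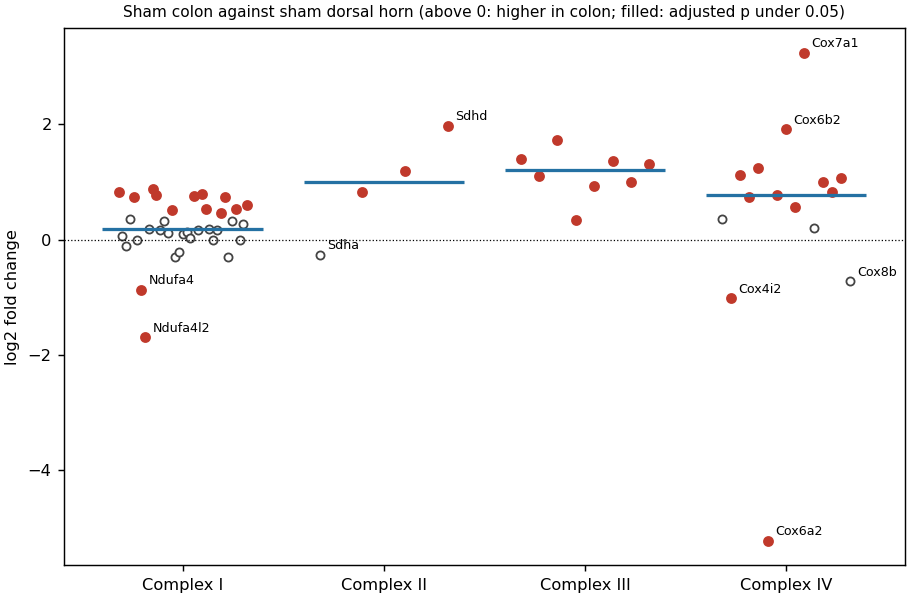
Log2 fold changes of 62 members between sham colon and sham dorsal horn (y axis, above 0 is higher in colon) by complex, with filled points for the 37 called members and a line at the median of each complex. All 8 members of complex III lie above 0, and Cox6a2, Ndufa4l2, Cox4i2 and Ndufa4 are called below 0.

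Levels between genes were compared per kilobase of annotated exon (mean CPM per kilobase over the 9 libraries of a tissue). In colon Cox6a1 was highest in complex IV (677), Uqcr10 in complex III (379.7), Sdhd in complex II (267) and Ndufb9, a LYR motif subunit, in complex I (153). In dorsal horn the highest were Cox4i1 (374), Ndufa4 by its symbol in complex I (159), Uqcrh, the hinge protein of complex III (157), and Sdha (140). Complex I had a median of 66.7 in colon and 61.0 in dorsal horn, complex III of 187 and 78.0, and complex IV of 114 and 72.4. The lowest members were the isoforms Ndufa4l2 (0.907 in colon, 3.29 in dorsal horn), Cox6a2 (0.107 in colon) and Cox7b2 (0.451 in dorsal horn), with Sdhc lowest in complex II (78.1 and 33.4), Uqcrc1 in complex III of colon (98.2) and Uqcrq in that of dorsal horn (50.1).

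The members lie on 18 chromosomes. Ndufs5 spans chr4:123712710-123718202, Cox7a2l chr17:83501918-83517330, Uqcrfs1 chr13:30540308-30545362, Sdha chr13:74322254-74350280 and Ndufa12 chr10:94198720-94221443 in GRCm38, and none of these has an exon that overlaps another annotated gene. Of the 63 members 21 do have such an overlap, among them Cox4i1 with Emc8 on the opposite strand. Without a stated strand setting, reads of such pairs cannot be told apart.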

How the data were processed

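Bulk RNA was sequenced from 18 libraries. The authors deposited whole-number counts per gene, 1 table per tissue, with no normalisation. FastQC 0.11.5, Trimmomatic, HISAT2, StringTie and GRCm38 are named in the submitters' processing notes; the counting tool, strand setting and annotation version were not given in the sources used here. Total counts ran from 20896854 to 30803957 for colon libraries and from 21855085 to 29071908 for dorsal horn libraries. Reads without molecular identifiers may be PCR copies, so intervals on counts cover counting error only.

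Each tissue was fitted with its 9 libraries in edgeR 4.0.16 (R 4.3.3) by the quasi-likelihood test with TMM factors, the default filter by group, robust dispersions and two-sided contrasts; p-values were adjusted by Benjamini and Hochberg over all genes tested (13445 and 13609), at a threshold of 0.05. Interaction and tissue contrasts came from 1 fit of 18 libraries (14164 genes). edgeR's common biological coefficients of variation were 0.376 (colon) and 0.170 (dorsal horn). DESeq2 1.42.0, other scalings, no filter, a replicate block, left-out libraries and marker scores as covariates were alternatives. The test code was run on counts simulated from edgeR's own fitted means and dispersions. Such counts follow the model of the test, so this run checked the code and not the fit of the model to these libraries. Correlations of deviations from the group means between same-numbered libraries were 0.192, 0.276 and 0.190 for dorsal horn cancer and nivolumab. In each other contrast at least 1 pair was under 0.1, and differently numbered dorsal horn libraries reached 0.469. The labels give no pairing. All main tests were therefore unpaired, and the replicate block was run only as an alternative. Members called were named (at most 10 a comparison, else the 5 with the smallest p), with the members highest and lowest per length, tissue isoforms and their counterparts, the Sdh genes and members with a median count under 10. Other members named were chosen after their values were seen. Gene models are from GENCODE vM21 and promoter windows from RefSeq. Members and lists were chosen with earlier results of these data known.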

Additional observations from a re-analysis of the deposited data

How the results depend on the processing

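Counts of called members moved with the settings in the dorsal horn, and the cause was not tested. Cancer against sham had 1, and 2 with DESeq2, upper-quartile factors, the replicate block or the ganglion score, 0 with the 2 groups alone, and 0 to 2 when 1 library was left out. Nivolumab against cancer had 5, against 8 with DESeq2, 2 without the expression filter, with the 2 groups alone or with the muscle score, and 2 to 5 when 1 library was left out. Nivolumab against sham had 6, against 10 with DESeq2, 3 with total counts only, and 0 to 5 when 1 library was left out. The colon count for cancer against sham was 0 to 1 when 1 library was left out, the 1 being without cancer 3. The interaction count for nivolumab against cancer was 1 with DESeq2 and 0 to 1 when 1 library was left out.

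The median of the members in the dorsal horn for cancer against sham went from −0.106 to −0.031 with total counts only. The interaction medians ran from −0.179 to 0.061 (cancer against sham) and from 0.114 to 0.405 (nivolumab against cancer) when 1 library was left out. Signs turned for values near 0: for nivolumab against sham in the colon, Cox7a2l ran from −0.13 to 0.20 and Ndufs5 from −0.0807 to 0.1625 when 1 library was left out, and in the dorsal horn Ndufs5 was 0.12 with the ganglion score and 0.062 with the muscle score. Same-numbered libraries had correlations of deviations from −0.0779 to 0.527 in the dorsal horn (6 of 9 over 0.1, against 5 of 18 with different numbers) and from −0.442 to 0.458 in the colon (3 of 9, against 7 of 18); not every sample correlated best with its own number. With the replicate block the counts were 4 for nivolumab against cancer, with Sdha lost, and 6 for nivolumab against sham in the dorsal horn, with Ndufb10 lost (adjusted p = 0.0555) and Cox7a2l gained (adjusted p = 0.0449), and 0 in each colon contrast. The colon's larger spread limits what 3 libraries a group can show there.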
